A study of Mus musculus with 2 samples.

Results

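Fibroblasts of KPC tumors are the cells described here, as found in a single-cell library that was prepared from sorted endothelial cells. KPC is a pancreatic cancer line, and barcodes of its library were taken as fibroblasts by their unique molecular identifiers (UMIs, each standing for 1 captured mRNA molecule). A member had at least 20 UMIs summed over the fibrillar collagen genes Col1a1, Col1a2 and Col3a1, and at least 2 over the matrix genes Lum, Dpt and Dcn. It had at most 1 UMI of Epcam and Krt19 together, at most 1 of Ptprc, at most 2 of Pecam1, Cdh5 and Egfl7 together, and at most 1 of Notch3 and Higd1b together. Of 10236 deposited KPC barcodes, 9591 had at least 500 genes and under 10% mitochondrial UMIs, and 395 of these met the gate, a share of 4.12% (95% Clopper-Pearson interval, 3.73 to 4.54%). All intervals here cover counting error only.

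The study asked how venular features of tumor endothelium relate to T cell entry, and these 2 libraries came from its unmanipulated tumors. KPC cells are a syngeneic line from p48-Cre mice with p53 m/m, PYMT cells are a breast cancer line from MMTV-PyMT mice, and both were implanted orthotopically (100000 cells) into wild-type female C57BL6 mice 6 weeks old. Tumors were taken at day 10 and digested with collagenase D, at 500 U/mL for KPC and 400 U/mL for PYMT. Cells binding antibodies or reagents for CD45, EpCAM, Ter119, podoplanin or Annexin V were depleted, and endothelial cells were sorted, so that the fibroblasts are cells that passed both steps and their share is not their share of the tumor. The sources used here do not state how many mice each library holds, and they name both the v2 and the v3 kit of the 10x Genomics 3′ assay. With 1 library per tumor model, no difference below has a replicate check, and none was tested.

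Fibroblasts make and remodel the extracellular matrix, and in pancreatic tumors they form much of the dense stroma for which this cancer is known. Those of pancreatic tumors are often described as myofibroblastic cells, which are contractile and rich in matrix, as inflammatory cells, which secrete cytokines and chemokines, and as cells with major histocompatibility complex class II genes that resemble mesothelium. Fibroblasts also lie in the adventitia of vessels, next to pericytes, the mural cells of capillaries.

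The 395 fibroblasts held 1949611 UMIs, with a median of 4476 per barcode (754 to 15600) and a median of 1802 genes. The other 9196 passing barcodes held 41901269 UMIs, with a median of 3084. Levels are given as CPM, a gene's UMIs scaled to 1e+06 UMIs of the group's sum, and the ratio of 2 groups' CPM is given on the log2 scale. A floor of 3 counts corresponds to 1.54 CPM in the fibroblasts and 0.0716 CPM in the other barcodes. UMIs were counted at the 3′ end, so levels are compared within a gene and not between genes.

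Before any result, the gate sums describe the members. The collagen sum had a median of 92 UMIs (20 to 396), with 14 members at 20 to 24, while 19 barcodes that met every other condition were at 15 to 19. The sum of Lum, Dpt and Dcn had a median of 20 UMIs (2 to 146). No member had a UMI of Ptprc, which encodes CD45, 359 had none of Epcam and Krt19, and 288 had none of the 3 endothelial genes. A further 53 barcodes failed on the endothelial limit alone, with 3 to 29 such UMIs. The 14 gate genes made up 2.78% of the fibroblasts' UMIs and are not results. The libraries shared 170 barcodes, of which 10 were KPC fibroblasts, and none of those 10 met the gate in the PYMT library.

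Genes outside the gate were used to check the label. Pdgfra, a growth factor receptor used as a fibroblast marker, was at 140.0 CPM in the fibroblasts (124 to 158) and 2.00 CPM in the other barcodes. Mfap5, a microfibril protein, was at 1815 CPM (1756 to 1876) against 16.6 CPM. With each barcode thinned to 2000 UMIs, which left out 42 fibroblasts, Mfap5 was found in 86.1% of 353 fibroblasts and 1.16% of 4399 blood endothelial barcodes, which should lack it. Unthinned, these shares were 89.9% at a median of 4476 UMIs and 1.35% at a median of 2993. The gated barcodes therefore carried Pdgfra and Mfap5, mesenchymal genes that the gate had not used. Both are among the 25 genes of highest ratio given below, so they describe the members and are no independent test. In the 55 pericyte barcodes Pdgfra had 0 UMIs and Mfap5 was found in 1 barcode. Pericytes share other mesenchymal genes, and they are compared below.

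Pdpn, which encodes the podoplanin of the depletion step, was at 266 CPM (243 to 289.6), with a UMI in 230 of 395 fibroblasts. In lymphatic endothelial barcodes, which are known to express it, Pdpn was at 259 CPM, a log2 ratio of fibroblasts over lymphatic of 0.04 (-0.12 to 0.19), and in blood endothelial barcodes at 5.14 CPM. Thinned to 2000 UMIs, 35.4% of fibroblasts, 40.6% of lymphatic and 0.909% of blood endothelial barcodes had a Pdpn UMI. The level of Pdpn in fibroblasts was thus within counting error of that in lymphatic endothelium and far above that in blood endothelium. Unthinned, the shares were 58.2%, 57.9% and 1.39% at medians of 4476, 3614 and 2993 UMIs. Xist, transcribed from the inactive X chromosome, was at 899.7 CPM in the fibroblasts and 647 CPM in tumor epithelial barcodes, and the Y-linked Ddx3y, Eif2s3y, Kdm5d and Uty had 0 UMIs in every passing KPC barcode. Ly76, the name of the Ter119 antigen, was not among the genes of the files.

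Short promoter stretches are shown for 3 genes of lists described below, the inflammatory Il6, the myofibroblastic Lrrc15 and the protease Mmp3. Each is the 250 bases before the RefSeq start (GRCm38.p6), read 5′ to 3′ on the gene's strand, at chr5:30012864-30013113 on the plus strand for Il6, chr16:30283255-30283504 on the minus strand for Lrrc15, and chr9:7445572-7445821 on the plus strand for Mmp3. Capitals mark matches to TGANTCA, the element bound by AP-1 (dimers of Fos and Jun family proteins), which reads the same on both strands, and to TATAAA on either strand.
Il6: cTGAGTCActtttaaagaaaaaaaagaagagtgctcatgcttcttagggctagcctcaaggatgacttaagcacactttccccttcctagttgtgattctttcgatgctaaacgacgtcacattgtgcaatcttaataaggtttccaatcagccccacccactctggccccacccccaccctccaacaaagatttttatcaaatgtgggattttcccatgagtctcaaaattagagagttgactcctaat
Lrrc15: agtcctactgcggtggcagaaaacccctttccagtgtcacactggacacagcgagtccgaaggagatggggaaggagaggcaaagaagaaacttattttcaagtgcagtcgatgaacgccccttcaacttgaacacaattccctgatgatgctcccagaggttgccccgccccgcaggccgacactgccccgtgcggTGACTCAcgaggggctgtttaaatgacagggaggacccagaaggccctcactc
Mmp3: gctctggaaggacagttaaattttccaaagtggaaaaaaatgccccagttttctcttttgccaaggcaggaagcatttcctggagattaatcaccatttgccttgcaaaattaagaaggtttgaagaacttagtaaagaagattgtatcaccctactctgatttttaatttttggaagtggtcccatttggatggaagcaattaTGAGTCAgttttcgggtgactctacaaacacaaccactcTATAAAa
The TGANTCA match starts 249 bases before the start in Il6, 53 in Lrrc15 and 46 in Mmp3. Such a match was found in 378 of 8871 promoters of tested genes (4.26%), in 42 of 817 promoters of genes higher in the fibroblasts (5.14%) and in 6.87% of all 27025 promoters of the RefSeq table. Of promoters found in the table, it was in 2 of 8 of the inflammatory list (Il6 and Igf1) and 1 of 8 of the myofibroblastic list (Lrrc15). Of the list of proteases and inhibitors, 2 of 14 had it (Mmp3 and Mmp13). The 3 promoters shown all hold a match and do not represent their lists. The other motifs searched, on both strands, were TATAAA (6.36% of tested and 7.71% of higher genes), CCAAT (36.6% and 34.3%), CATTCC (10.4% and 12.7%), TGTGGT (10.1% and 9.55%) and the CArG box (1.12% and 1.59%), which was in 2 of 7 contractile genes. A match is a description of letters in this window and not a binding site.

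Among 11344 genes outside the gate with at least 100 UMIs in passing KPC barcodes, 1092 (9.63%) were higher in the fibroblasts by a log2 ratio of at least 1 and 2519 (22.2%) were lower by at least as much. The median log2 ratio of all 11344 genes was -0.32, so the bulk of genes lay slightly below 0, and 140 genes reached 5 or more. Because the minimum is set over all barcodes, a gene nearly absent elsewhere passed it only through the fibroblasts, and counts of passing genes are a description. The shares of 9.63% and 22.2% are the background for the counts of every list below. The rule of the gate selected on collagen, and other matrix genes of these cells are read with that in mind.

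The genes named first are the 25 with the highest ratio among genes of at least 100 CPM in the fibroblasts. Of these, Sfrp2, a secreted modulator of WNT signaling, had the highest, with 423 CPM (395 to 453) against 2.79 CPM, a log2 ratio of 7.24 (6.96 to 7.54). It was followed by Chl1, a cell adhesion molecule, at 7.16, Cilp, a cartilage matrix protein, at 7.10, and the microfibril proteins Mfap4 at 7.09 and Mfap5 at 6.78. Has1, an enzyme that makes hyaluronan, had a ratio of 6.72 (6.34 to 7.12), and Saa3, an acute-phase protein, 6.70. Saa3 was unevenly spread, with its 1297 UMIs in 88 barcodes and 14.3% of them in 1 barcode, while the 3539 UMIs of Mfap5 lay in 355 barcodes. The other 18 of the top 25 were Svep1, Ogn, Cpxm1, Penk, Dpep1, Loxl1, Sfrp1, Col14a1, Mrc2, Islr, Fbn2, Hp, Wnt2, Vgll3, Adamts2, Srpx, Pdgfra and Cyp1b1, with ratios from 6.67 down to 6.12. Dpep1, Islr and Srpx overlap another gene on the same strand and are uncertain to that extent. Of all 396 listed genes, 15 overlap another on the same strand and 123 one on the opposite strand, among them Sfrp2, Igf1 and Fgf2. On GRCm38, Sfrp2 lies at chr3:83766321-83774316 on the plus strand, Mfap5 at chr6:122505845-122529290 on the plus strand, Has1 at chr17:17843323-17855205 on the minus strand and Saa3 at chr7:46711998-46715700 on the minus strand.

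The 10 lowest ratios among genes of at least 100 CPM in the other barcodes belonged to genes of the other cells in the library. Onecut2, Lgals2, Wfdc2, Lgals4 and Tm4sf4 were highest in tumor epithelial barcodes, Wfdc2 with 1801 CPM there and 5.64 CPM in the fibroblasts. Cldn5, a tight junction gene of endothelium, was at 4.10 CPM against 257 CPM, and the lymphatic marker Lyve1 at 3.08 against 186 CPM. Cdh13 (-5.94) and Upp1 (-6.75, with 3 UMIs in the fibroblasts) were highest in blood endothelial barcodes. Mcpt2 had 0 UMIs in the fibroblasts and 117 CPM elsewhere, so that against the floor of 3 counts its log2 ratio was at most -6.25.

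**Figure D1:**
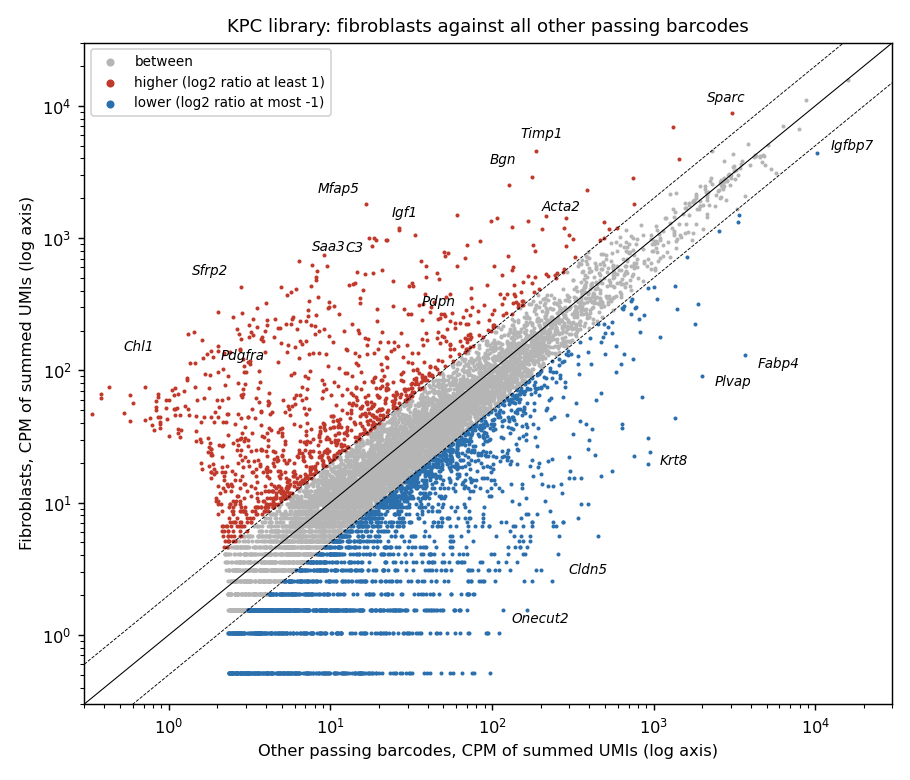
Level of each tested gene in CPM of summed UMIs, other passing barcodes on the x axis and the 395 fibroblasts on the y axis, both log axes, colored by call, with equal levels on the solid line and a log2 ratio of 1 or -1 on the dashed lines (genes with 0 UMIs in the fibroblasts are drawn at their floor of 1.54 CPM). Sfrp2 (423 against 2.79 CPM) lies far above the lines, and Krt8 (24.1 against 949 CPM) far below.

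Collagens that the gate had not used were mostly higher. Of 17 such genes, 14 passed the minimum, 11 were higher and 2 lower, with a median log2 ratio of 5.31 (-0.32 for all genes). Col5a2, which joins collagen I fibrils, was at 969 CPM (926 to 1014) against 22.2 CPM, and Col6a1, Col6a2 and Col6a3, the chains of beaded-filament collagen VI, had ratios of 5.25, 5.50 and 5.89. Col8a1 was at 574 CPM, Col5a1 at 512 CPM and Col14a1, which binds fibril surfaces, at 324 CPM. Not all collagens were higher. Col4a2, a chain of basement membrane collagen IV, was lower at 334 CPM against 723 CPM (-1.11), Col18a1 at 36.9 against 192 CPM (-2.38), and Col4a1, the other collagen IV chain of the list, had a ratio of -0.86, short of the fold. Col15a1, a basement membrane zone collagen related to Col18a1, was higher, at 333 against 153 CPM (1.13), a call lost under 3 alternatives (0.54 to 0.97). The remaining 3, Col7a1, Col10a1 and Col11a1, had under 100 UMIs.

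Small leucine-rich proteoglycans, which bind collagen and space its fibrils, showed the same side. All 5 of 7 that passed the minimum were higher (median 4.10), with Bgn (biglycan) at 2911 CPM (2836 to 2988) against 176 CPM, and Ogn, Aspn, Prelp and Fmod at ratios of 6.59, 4.10, 2.53 and 5.45. Podn and Omd did not pass. Among matrix glycoproteins 11 of 15 tested were higher and 1 was lower (median 4.02). Sparc, a collagen-binding protein, was at 8829 CPM in the fibroblasts and already at 3063 CPM elsewhere (1.53). Against blood endothelial barcodes alone its ratio was 0.97, short of the fold. Mgp, an inhibitor of calcification, was at 2524 against 128 CPM, fibronectin (Fn1) at 1471 against 216 CPM, Thbs1 at 876 against 288 CPM, periostin (Postn) at 539 against 16.3 CPM and tenascin C (Tnc) at 441 against 13.1 CPM. Sparcl1 was the member that was lower, at 266 against 722 CPM (-1.44). Ecm1, Nid1 and Tgfbi lay within the fold, and Comp had under 100 UMIs.

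Elastic fiber and microfibril genes were higher in 12 of 14 (median 3.35). Beside Mfap5 and Mfap4, Fbln2 was at 798 CPM (2.12), Fbn1, the main microfibril protein, at 544 CPM (4.89), Mfap2 at 459 CPM (3.84), Efemp2 at 431 CPM (3.73) and elastin (Eln) at 267 CPM (2.47). Ltbp4, which holds latent TGF-beta in the matrix, was lower (-1.55), and Fbln5 was within the fold (-0.86). For the enzymes and chaperones that fold, trim and cross-link collagen, 13 of 17 were higher, none was lower and the median was 2.25. The collagen chaperone Serpinh1 was found in 395 of 395 barcodes, at 3975 against 1427 CPM (1.48). The cross-linking oxidases Lox and Loxl1 had ratios of 6.09 (5.92 to 6.27) and 6.36 (6.20 to 6.53), the procollagen enhancer Pcolce 3.49, and the lysyl hydroxylase Plod2 4.40, while its relative Plod1 was at -0.81. Ppib, Fkbp10 and Colgalt1 were within the fold at 0.76, 0.85 and 0.61.

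Proteases of the matrix and their inhibitors were higher in 18 of 21 (median 3.15), and none was lower. Timp1, an inhibitor of metalloproteinases, was at 4567 CPM (4473 to 4663) against 188 CPM. Timp3 and Timp2 were at 1063 and 467 CPM with ratios of 1.83 and 1.59. The call of Timp3 was lost with the mean of CPM per cell (0.93). Serpinf1 (pigment epithelium-derived factor) had a ratio of 5.59, and Serpine2, an inhibitor of plasminogen activators, 3.35. The gelatinase gene Mmp2 was at 449.8 against 13.9 CPM, stromelysin 1 (Mmp3) at 436 against 7.54 CPM, and Fap, a serine protease used as a marker of tumor fibroblasts, at 59.5 against 0.955 CPM (5.96). Adamts1, Mmp13 and Plau stayed within the fold, Mmp13 with 15 UMIs of which 73.3% came from 1 barcode.

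**Figure D2:**
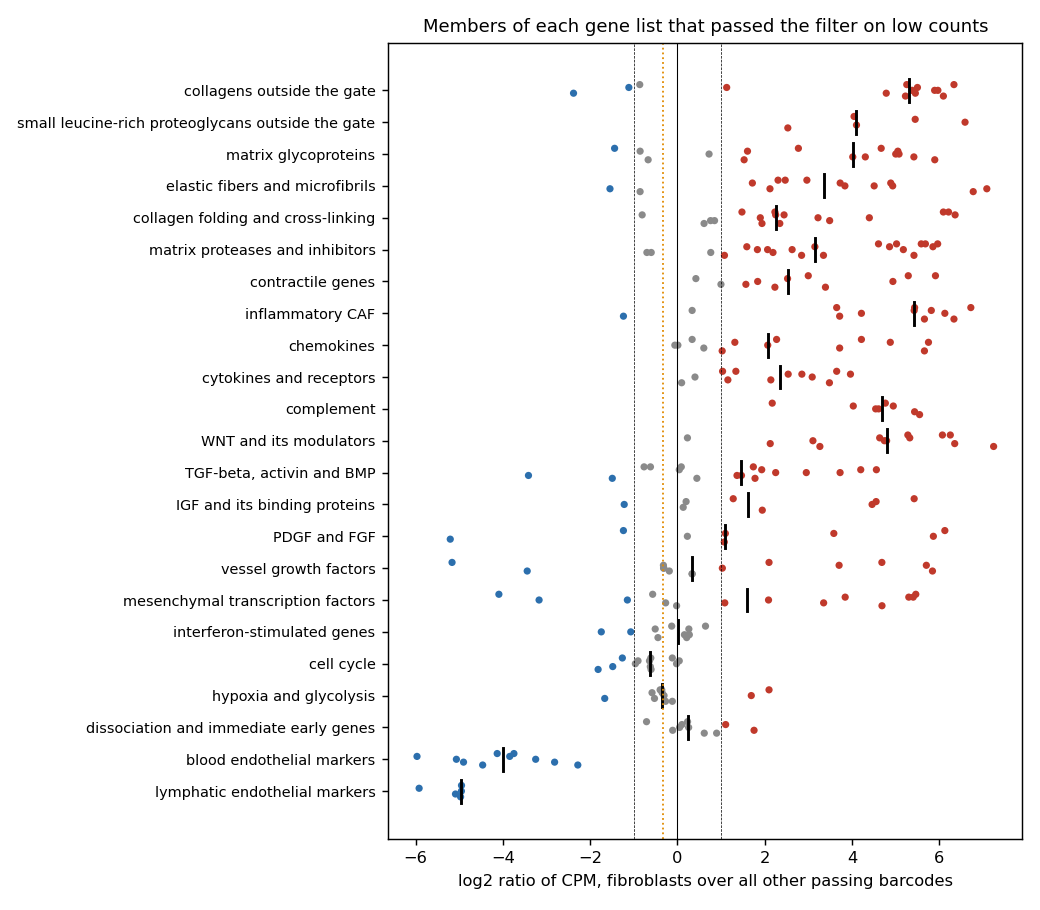
Log2 ratio of CPM, fibroblasts over all other passing barcodes, on the x axis for the members of each gene list on the y axis that had at least 100 UMIs, 1 point per gene, with a bar at each list's median and a dotted line at the median of all tested genes (-0.32). Matrix, WNT, complement and inflammatory genes lie mostly at or above 1, while the 10 blood endothelial and 5 lymphatic markers all lie at or below -1.

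Genes of contraction were higher than in the pooled other barcodes, but most were lower than in pericytes. Of 11, 9 were higher and none lower (median 2.52). Acta2, smooth muscle actin, was at 1341 CPM (1289.9 to 1393) against 168 CPM, and its UMIs lay in 178 of 395 barcodes. Tagln, which binds actin, was at 1174 against 204 CPM, the tropomyosin gene Tpm2 at 710.4 against 67.7 CPM, and the surface protein Thy1 at 439.6 against 93.5 CPM. Tpm1, just short of the fold, and Cnn2 (0.42) did not reach it. In the 55 pericyte barcodes, gated on Notch3 and Higd1b, Acta2 was at 7182 CPM, and the log2 ratio of fibroblasts over pericytes was -2.42 (-2.52 to -2.32). It was -1.45 for Tagln, -3.29 for Myl9, -1.26 for Tpm2, -1.23 for Thy1 and -1.69 for Tpm1. Over the 11 genes, the counting interval lay below 0 for 9, and it included 0 for Cnn1 and for Lrrc15 (-1.02 to 1.27).

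The pericytes also shared other mesenchymal genes with the fibroblasts. Pdgfrb, the receptor known for recruiting mural cells, was lower in fibroblasts (87.2 against 317 CPM), as was Aspn (134 against 559.7 CPM). For Prrx1, a mesenchymal transcription factor, the ratio was -0.37 (-0.76 to 0.03), an interval that includes 0. In contrast, Igf1, C3, Pdgfra, Sfrp2, Has1, Ogn and Mmp3 had 0 UMIs in the 55 pericytes, whose floor was 18.7 CPM. Against that floor, the fibroblasts were higher by a log2 ratio of at least 5.94 for Igf1, 5.71 for C3, 4.50 for Sfrp2 and 2.91 for Pdgfra. The pericyte class was shallow, with a median of 2279 UMIs per barcode.

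**Figure D3:**
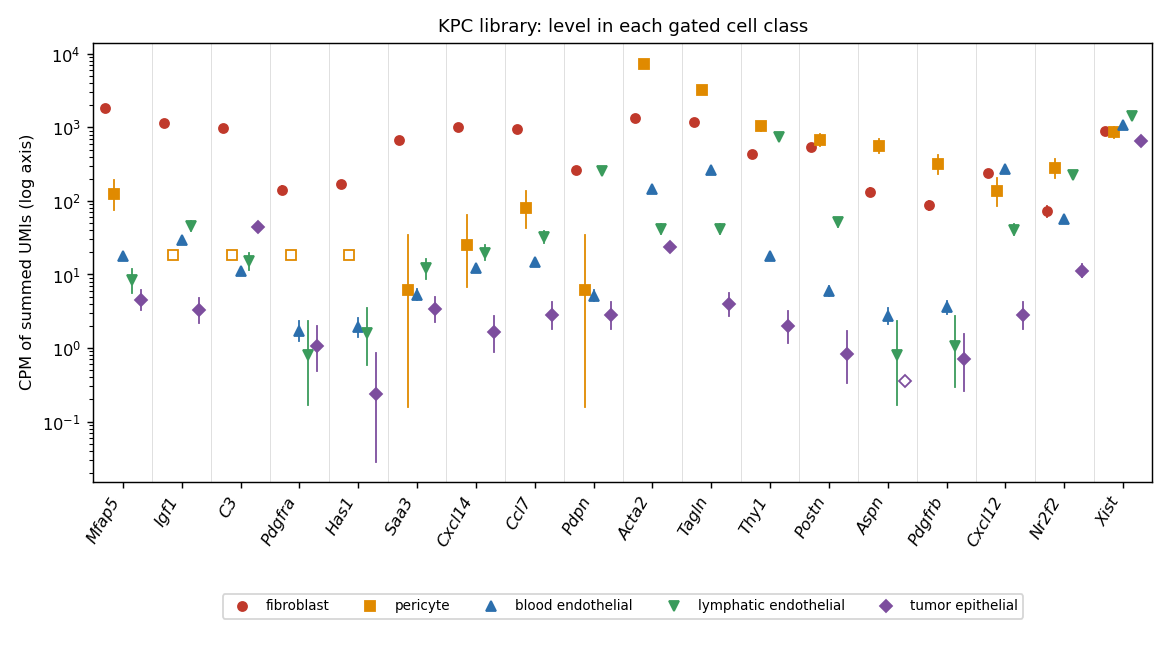
Level in CPM of summed UMIs (log axis) of 18 genes in fibroblasts and in the pericyte, blood endothelial, lymphatic endothelial and tumor epithelial barcodes of the KPC library, with bars for exact 95% Poisson intervals and open symbols at the floor of 3 counts for a count of 0. Mfap5, Igf1, C3 and Pdgfra are highest in fibroblasts, Acta2, Tagln, Thy1 and Aspn in pericytes, and Pdpn is at like levels in fibroblasts and lymphatic endothelium.

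The list of 12 myofibroblastic genes, which draws on the matrix and contractile genes above, had 11 higher and none lower (median 4.03). On the inflammatory list 10 of 12 were higher and 1 was lower (median 5.43). Igf1, the insulin-like growth factor, was at 1145 CPM (1098 to 1193) against 26.7 CPM and had a UMI in 332 barcodes. C3 was at 975 against 22.6 CPM, Ccl7 at 967 against 19.1 CPM, Cxcl1 at 674 against 36.3 CPM, Ccl2 at 512 against 38.9 CPM and Il6 at 307 against 24.5 CPM. Ly6c1 was lower (-1.24), being at 424 CPM in the fibroblasts and 1373 CPM in blood endothelial barcodes, and Cxcl12 was within the fold (0.34). Igf1 was thus in most fibroblasts. Thinned to 2000 UMIs, it was found in 70.3% of fibroblasts, 4.46% of blood endothelial and 1.10% of tumor epithelial barcodes, which should lack it. Unthinned, the first share was 84.1% at a median of 4476 UMIs and the last 2.18% at a median of 12275.5.

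Chemokines, which attract leukocytes, were higher in 9 of 13 tested and lower in none (median 2.07). Cxcl14 was at 1006 CPM (962 to 1052) against 18.7 CPM, with its UMIs in 183 of 395 barcodes. Ccl11, which draws eosinophils, was at 308 against 10.5 CPM, and pericytes had a higher level of 547 CPM. Cxcl10, a ligand of the chemokine receptor CXCR3, just passed the fold (1.02, 0.74 to 1.30), with 22.5% of its UMIs in 1 barcode. That call was lost under 5 alternatives, with ratios of 0.48 to 0.98. Cxcl9, Cxcl16 and Cx3cl1 were within the fold. Cxcl13 had 26 UMIs in 9 barcodes and, with Ccl19, did not reach the minimum. The symbol Ccl19 has 2 gene identifiers in the files and is uncertain.

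Cytokines and their receptors were higher in 10 of 12 tested (median 2.34). Il11ra1, a receptor of interleukin 11, was at 613 against 39.3 CPM, Il33, an alarmin, at 319 against 37.5 CPM, Il1r1 at 152 against 26.3 CPM and Csf1, the macrophage growth factor, at 108 against 9.64 CPM. The common receptor chain Il6st (0.40) and Tnfrsf1a (0.10) lay within the fold, and Tnfsf11 had too few UMIs. All 8 complement genes tested were higher (median 4.69), among them Serping1, the inhibitor of C1, at 1483 against 60.8 CPM, C1s1 at 297 against 9.64 CPM, C4b at 102 against 2.17 CPM, C1ra at 98.5 against 3.63 CPM, C3 as above, and C2 and Cfb at ratios of 4.54 and 2.17. All 46 UMIs of the ninth gene, Cfd, came from 1 barcode.

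WNT genes stood mostly on the higher side, 12 of 13 tested (median 4.79). These were the ligands Wnt2 (6.25), Wnt4 (4.63) and Wnt5a (4.74), the secreted modulators Sfrp1 (628 against 7.68 CPM), Sfrp2, Sfrp4, Dkk3 and Rspo3, the receptor Fzd1 (179.5 against 4.49 CPM), Wisp1, Wisp2 and the target gene Axin2 (3.10). Dkk2 was within the fold and Rspo1 did not pass. For TGF-beta, activin and BMP genes, 10 of 17 were higher and 2 lower (median 1.47), beside 9.63% and 22.2% of all tested genes. Fstl1, which binds BMP and activin, was at 1422 against 107 CPM, the receptor Tgfbr2 at 280.1 against 81.7 CPM, the activin chain Inhba at 181 against 9.86 CPM and its antagonist Fst at 199.5 against 8.47 CPM. Tgfb2 (1.93) and Tgfb3 (2.95) were higher, whereas Tgfb1 was at -0.77. Bmp2 (2 UMIs, -3.41, -6.46 to -1.55) and Bmp4 (4 UMIs, -1.49) were lower, the call of Bmp4 being lost under 2 alternatives (-0.94 and -0.62).

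In the insulin-like growth factor family 5 of 8 tested were higher (median 1.61). Beside Igf1 these were the binding proteins Igfbp4 (2849.8 against 741 CPM), Igfbp6, Igfbp2 and Igfbp5, the call of Igfbp5 being lost under 3 alternatives (0.88 to 0.95). Igfbp7 was lower, at 4427 against 10311 CPM, with 14949.7 CPM in blood endothelial barcodes. Igfbp3 (0.13) and the receptor Igf1r (0.20) did not reach the fold, and Igf2 had 0 UMIs. Among PDGF and FGF genes 5 of 8 were higher (median 1.09): the receptors Pdgfra, Pdgfrb (3.58) and Fgfr1 and the ligands Fgf2 (5.86) and Pdgfc (1.07). The calls of Fgfr1 and Pdgfc were lost under 2 and 3 alternatives. With at least 500 UMIs per gene 1 of 4 was higher and the median was -0.51, and with no minimum it was 3.27 over 12. The ligand genes Pdgfb (-5.21) and Pdgfd (-1.24) were lower, and Pdgfb is known from endothelium. Pdgfa was within the fold, and Fgf7, Fgf10, Fgfr2 and Hgf had under 100 UMIs.

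Factors that act on vessels were mixed, with 6 of 14 higher and 2 lower (median 0.34), beside 9.63% and 22.2% of all tested genes. With at least 500 UMIs per gene, 2 of 9 were higher and the median was -0.31, and against blood endothelial barcodes alone it was 1.29. Vegfd, a ligand of the lymphatic receptor, was at 137 CPM (121 to 154) against 2.39 CPM, Vegfa at 50.3 against 11.7 CPM, and the guidance ligands Slit3 and Slit2 had ratios of 5.70 and 4.68. Angptl2 (3.70) and Angptl4 (1.03, and 0.89 and 0.94 under 2 alternatives) were also higher. Angpt2 (4.62 against 166 CPM) and Apln (21.5 against 234 CPM), both known from sprouting endothelium, were lower. Cxcl12 was at 238 CPM in fibroblasts and 274 CPM in blood endothelial barcodes, and Vegfb, Vegfc, Pgf, Sema3c and Sema3d also lay within the fold. Angpt1 had 47 UMIs in the fibroblasts and did not pass.

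Of mesenchymal transcription factors 8 of 14 tested were higher and 3 lower, beside 9.63% and 22.2% of all tested genes. Their median was 1.59, and 0.53 to 3.30 over the alternatives. Prrx1 was at 288 against 7.30 CPM, Runx1 at 174 against 17.1 CPM, Prrx2 at 169 against 39.7 CPM and Zeb2 at 134 against 9.33 CPM. Twist1, Osr1, Snai1 and Wt1 were higher too, the call of Snai1 being lost under 4 alternatives (0.55 to 0.98). Wt1, known from mesothelium and its descendants, was at 122 against 2.89 CPM, with UMIs in 151 barcodes. Tcf4 (-1.15), Meox1 (-3.17) and Foxf1 (-4.09, 3 UMIs) were lower. Snai2, Zeb1 and Meox2 were within the fold, and Twist2, Tcf21, Gli1 and Tbx18 had under 100 UMIs. The adventitial list was mixed, with Pi16 (5.56), Cd248 (4.57) and Cd55 (1.76) higher, Cd34 (-1.95) and Anxa3 (-1.54) lower, Ly6a (1666 against 1316 CPM), Sema3c and Ackr3 within the fold, Dpp4 not passing, and a median of 0.21 over 8.

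Lists of cell state had medians from -0.63 to 0.24, beside -0.32 for all genes. Immediate early and heat shock genes, which also rise during tissue dissociation, had Fosb and Hspa1b (1.75) higher and the other 8 of 10 within the fold (median 0.24), Fos at 2152 against 1832 CPM and Jun at 1228 against 1028 CPM. Interferon-stimulated genes had Ifit2 and Rsad2 lower, beside 22.2% of all tested genes, and 8 of 10 within the fold (median 0.01). The call of Ifit2 was lost under 3 alternatives (-0.97 to -0.75). Of 12 cell cycle genes none was higher and 3 were lower, beside 22.2% of all tested genes (median -0.63, -0.83 to -0.32 over the alternatives). The 3 were Mcm2 (-1.48), Mcm5 (-1.82) and Rrm2 (-1.26). The call of Mcm2 was lost with barcodes thinned to 2000 UMIs (-0.94), and that of Rrm2 under 2 alternatives (-0.56 and -0.52). The other 9 were within the fold, among them Mki67 (-0.12) and Top2a (0.04). For hypoxia and glycolysis genes, Vegfa and Bnip3 (1.69) were higher, Ndrg1 (-1.67) was lower, 8 were within the fold (median -0.35), and Car9 did not pass. Aldoa, with 2 identifiers for its symbol, is uncertain.

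Genes that the study names, most of them endothelial, were lower in 14 of 20 (median -1.98), beside 22.2% of all tested genes. Ccl2 and Cxcl10 were the 2 that were higher. The call of Cxcl10 was lost under 5 alternatives, as given above. Nr2f2, which encodes the venous transcription factor COUP-TFII, was at 72.3 CPM (60.9 to 85.3) in the fibroblasts, 57.3 CPM in blood endothelial, 229 CPM in lymphatic and 279.8 CPM in pericyte barcodes. The adhesion genes Vcam1 (0.41) and Icam1 (-0.57) and the Notch effector Rbpj (0.63) were within the fold as well. Selp, Sele, Ephb4, Bst1, Madcam1, Notch4, Hey1, Nrp1, Efnb2, Icam2, Ly6c1, Podxl and Eng were lower, among them Selp (P-selectin) at 2.56 against 85.2 CPM and Icam2 at 6.67 against 239.8 CPM. Ccl5 had 0 UMIs in the fibroblasts and 7.09 CPM elsewhere.

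Marker genes of other cells were measured over whole lists. All 10 blood endothelial markers were lower (median -3.99), and their summed level was 429 CPM against 6253 CPM, with Eng, the gene with the most UMIs, at 134 CPM. The 5 lymphatic markers were lower too (53.9 against 1768 CPM, most of it Ccl21a at 43.6 CPM, a symbol with 2 identifiers), and Prox1 had 3 UMIs. Epithelial genes summed to 64.1 against 2307 CPM, with 5 of 7 tested lower and Sfn within the fold. Krt8 had the most UMIs (24.1 CPM), and Cldn4 and Krt6a were at 0. The list summed to 9042 CPM in tumor epithelial barcodes, but to 56.0 CPM in pericyte, 43.5 CPM in lymphatic and 41.4 CPM in blood endothelial barcodes. Against blood endothelial barcodes alone those 5 calls were lost (-0.61 to 0.65). Red blood cell genes were lower in 4 of 4 (5.64 against 62.1 CPM, Hba-a1 with the most UMIs), and Schwann cell genes, none of which passed, summed to 7.69 CPM with Sox10 and Cdh19 at 0. Pericyte markers summed to 254 against 320 CPM. Of the 7, the defining Rgs5 (8.21 CPM, and 5565 CPM in pericytes), Abcc9 and Mcam were lower, Ndufa4l2 (164 CPM), Vtn and Cspg4 were higher and Kcnj8 was within the fold. Smooth muscle genes were higher in 4 of 5, at 462 against 29.9 CPM, of which Actg2 made up 299.5 CPM with 19.3% of its UMIs in 1 barcode, and Lmod1 was within the fold.

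Immune and acinar genes were carried by few barcodes. Immune markers summed to 111 against 91.7 CPM, with Cd68 lower, 7 of 8 tested within the fold and Cd3e at 0. Lyz2, a gene of myeloid cells and the one with the most UMIs, was at 67.2 CPM with 48.9% of its UMIs in 1 barcode. Pancreatic acinar genes summed to 85.1 against 49.4 CPM, with Cela1 and Try4 higher, Ctrb1 and Prss2 within the fold, the other 4 below the minimum and Amy2a5 at 0. Of the 63 UMIs of Ctrb1, the gene with the most, 87.3% came from 1 barcode. A UMI of Lyz2, Tyrobp, C1qa, Ctrb1, Prss2 or Try4 was found in 50 of the 395 fibroblasts, and in the other 345 all 8 immune genes tested were lower (median -2.01), as were 2 acinar genes (median -1.93), in part because the removal used some of those genes. Without those 50 barcodes, 1079 genes were higher, and 8 chemokines and all 8 complement genes still were. The part of these cells in the results was not tested. Stellate cell markers, of which 4 of 7 were tested, had Des higher (2.96) and Fabp4 (-4.81), Rgs5 and Reln lower, with Gfap at 0 and Lrat at 9 UMIs in 7 barcodes. Their sum was 243 against 3794 CPM, most of it Fabp4 in both.

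The 395 fibroblasts were not uniform. Clustered on their own without the gate genes, they fell into 5 clusters, which are described by their genes with no test, since the same genes made the clusters. Cluster 1 held 65 barcodes (16.5%, median 6275 UMIs) and stayed unnamed, with mitotic leading genes (Mxd3, Pbk, Ube2c, Nusap1, Ccnb1, Cdc20, Pimreg, Cenpf, Tpx2 and Ckap2l). Cluster 2 held 101 (25.6%, median 3489 UMIs) and was also unnamed, led by Ifitm1, Apod, Vtn, Hsd11b1, Gm13889, Ntrk2, Adh1, G0s2, Abca8a and Matn2. Cluster 3, adventitial (Pi16) fibroblast-like, held 119 (30.1%, median 3850 UMIs), led by Sfrp4, Cd55, Efemp1, Clec3b, Tnxb, Sfrp2, Pi16, Adgrd1, Sned1 and Lrrc17. Cluster 4, myofibroblastic CAF-like (CAF is cancer-associated fibroblast), held 91 (23.0%, median 5829 UMIs), led by Lrrc15, Actg2, Stra6, Igfbp3, Dkk2, Kif26b, Cpxm2, Slc20a1, Inhba and Glipr1. The 19 barcodes of cluster 5 (4.81%, median 5920 UMIs) were mesothelial-like, led by Slpi, Cxadr, Upk3b, Stxbp2, Upk1b, Gpm6a, Gatm, Lgals7, Enpp2 and Lrrn4. Epithelial markers were higher in it beside the mesothelial ones, both lists holding Krt8 and Krt18: they summed to 381 CPM against 43.7 CPM in the other fibroblasts (log2 ratio 3.13), and the mesothelial list to 1245 against 142 CPM (3.13). Of the 19 barcodes, only 11 were outside the top 8% of scores from Scrublet, a doublet detector, and the rest were in it. Of all 395 fibroblasts, 25 (6.33%) were in that top 8%. Scrublet itself called 0 of 9591 barcodes. The part of epithelial cells or doublets in this cluster was not tested.

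Contractile and inflammatory genes differed most between clusters 4 and 3. The myofibroblastic list summed to 14155 CPM in cluster 4 and 2548 CPM in cluster 3, with 6246, 3672 and 3566 CPM in clusters 1, 2 and 5. Smooth muscle markers, some of which are contractile genes too, moved with it: they summed to 1313 CPM in cluster 4 and 147 CPM in the other fibroblasts, a log2 ratio of 3.16 against 1.80 for the myofibroblastic list. Of these, Actg2 was at 926 CPM and Myh11, which marks mature smooth muscle, at 30.4 CPM in cluster 4. Pericyte markers summed to 381 against 207 CPM (0.88), with Rgs5 at 1.90 CPM in cluster 4. Their part in the cluster was not tested. The inflammatory list ran the other way, at 933 CPM in cluster 4, 10955 CPM in cluster 3, 8412 CPM in cluster 2, 5495 CPM in cluster 1 and 3177 CPM in cluster 5. Acta2 was at 2979 CPM in cluster 4 and 229.7 CPM in cluster 3, and Tnc at 1157 and 103 CPM. Igf1 was at 229.6 CPM in cluster 4 and 1952 CPM in cluster 3, Ccl2 at 17.1 and 824 CPM, and Cxcl1 at 15.2 and 1289 CPM. Cxcl14 did not follow the other chemokines, at 1893 CPM in cluster 2, 1461 CPM in cluster 4, 927 CPM in cluster 1 and 93.1 CPM in cluster 3.

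Some genes marked a single cluster and others none. Mmp3 was at 1190.2 CPM in cluster 2, against 411, 327, 62.6 and 178 CPM in clusters 1, 3, 4 and 5. Cluster 2 also had the highest sums of blood endothelial markers (700 CPM), immune markers (410 CPM) and acinar genes (368 CPM), the last at 24.7 CPM or less in each other cluster, and their part in it was not tested. Cell cycle genes summed to 3379 CPM in cluster 1, 796 CPM in cluster 5 and at most 233 CPM in the rest. In cluster 5, the class II gene Cd74 was at 440.5 CPM, Wt1 at 407 CPM and Krt8 at 186 CPM. Of the 7 genes of the antigen-presenting list, 4 were higher over all fibroblasts (Saa3, H2-Ab1, H2-Eb1 and Slpi), Msln was lower, Cd74 and H2-Aa were within the fold, and the median was 1.38. These counts turned on few barcodes: without the 19 of cluster 5, 1 was higher, 2 were lower and the median was -0.65, and without the 50 barcodes with macrophage or acinar UMIs, 3 were higher and the median was 0.38. Of the mesothelial list Wt1 and Nkain4 were higher, Msln, Krt8 and Krt18 lower, Upk3b was within the fold and Upk1b, Lrrn4 and Bnc1 did not pass (median -1.35). That median turned to 2.44 against blood endothelial barcodes alone and to 1.47 with no minimum of UMIs. Against blood endothelial barcodes Msln turned from lower (-3.52) to higher (1.59), and Krt8 (0.65) and Krt18 (0.32) lost their calls. Without the 19 barcodes of cluster 5, Nkain4 lost its call (2.21 to 0.81). The list summed to 209 CPM in fibroblasts, 35.5 CPM in blood endothelial and 43.5 CPM in pericyte barcodes, and 7656 CPM in tumor epithelial barcodes. The sum of mesenchymal transcription factors ranged only from 1320 to 1525 CPM over the 5 clusters.

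**Figure D4:**
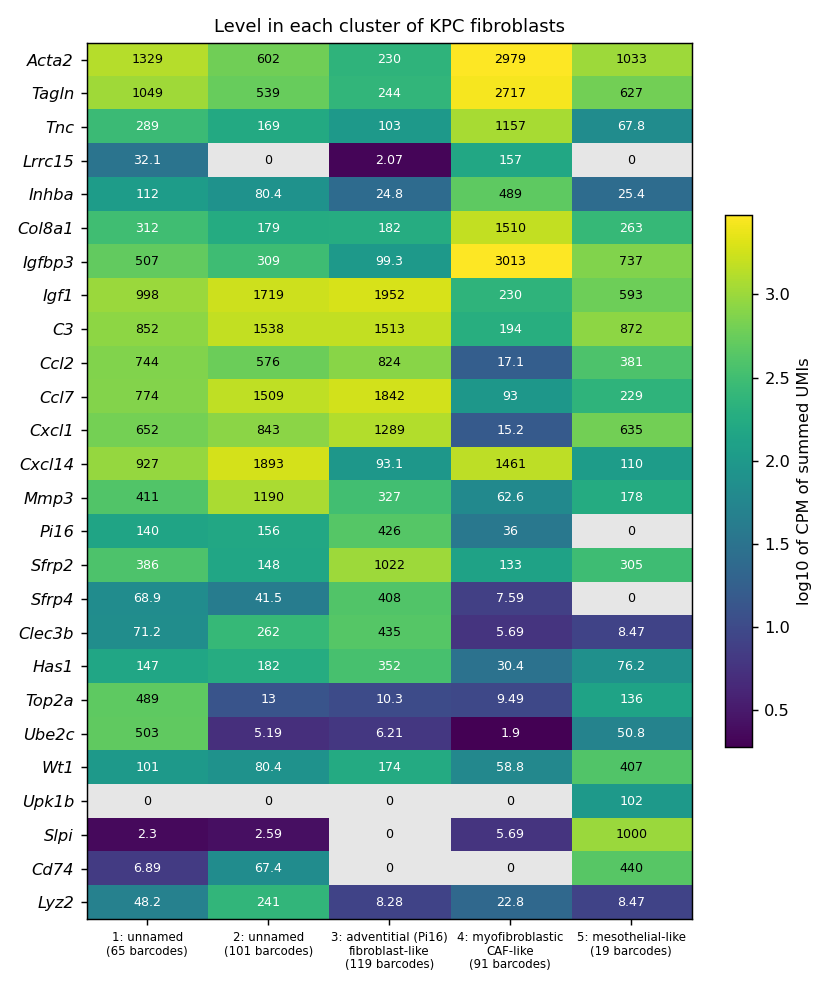
Level of 26 genes (rows) in the 5 clusters of KPC fibroblasts (columns), as the log10 of CPM of summed UMIs by color, with the CPM printed in each cell and gray for 0 UMIs. Acta2, Tnc and Lrrc15 are highest in cluster 4, Sfrp2, Clec3b and Pi16 in cluster 3, Mmp3 and Lyz2 in cluster 2, Top2a in cluster 1 and Slpi and Wt1 in cluster 5.

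The same gate in the PYMT library gave 21 of 11744 passing barcodes, 0.179% (0.111 to 0.273%), with 79273 UMIs and a median of 3937. Tumor model, digestion, sort and library cannot be told apart between the 2 shares. Of the 25 genes of highest ratio named for KPC, 24 had UMIs in the 21 PYMT barcodes. Their log2 ratio over the other PYMT barcodes had a counting interval above 0, as had 7.83% of the 11344 genes tested in KPC. That share is no matched background. The 25 are all of at least 100 CPM in KPC and so more likely to be detected, while the 11344 also include genes of lower level. Both groups of barcodes were also chosen by the same gate. Mfap5 was at 2081 CPM (1776 to 2424) in the 21 PYMT barcodes, against 1.33 CPM in the other PYMT barcodes, and Sfrp2 at 694 CPM (523 to 903). The exception was Hp, with 0 UMIs in PYMT, where the floor is 37.8 CPM, and 132 CPM in KPC. Some levels lay apart between the libraries, and the genes given here were chosen after their values were seen. Postn was at 539 CPM in KPC and 6105 CPM (5574 to 6674) in PYMT, Cxcl14 at 1006 and 4794 CPM, Tnc at 441 and 1879.6 CPM, Mgp at 2524 and 833 CPM, and C3 at 975 and 315 CPM. Il6 and Wt1 had 0 UMIs in the 21 PYMT barcodes, against 307 and 122 CPM in KPC.

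**Figure D5:**
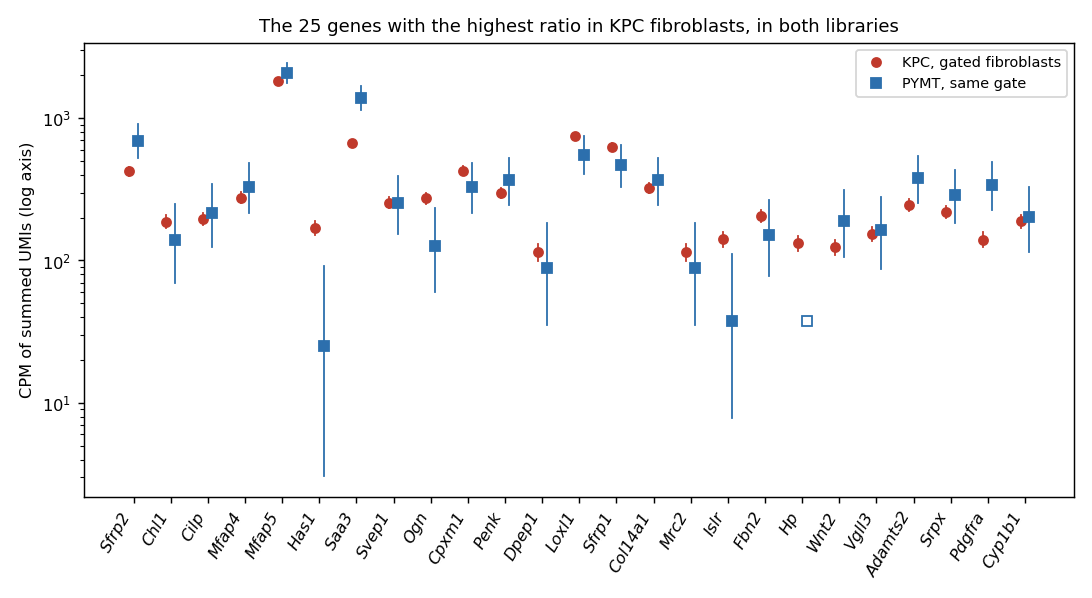
Level in CPM of summed UMIs (log axis) of the 25 genes with the highest ratio in KPC fibroblasts among genes of at least 100 CPM there, in the 395 KPC and the 21 PYMT barcodes of the same gate, with bars for exact 95% Poisson intervals and an open symbol at the floor of 3 counts for a count of 0. Intervals are wider for the 21 PYMT barcodes, and Hp has no UMI there.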

How the data were processed

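Single-cell suspensions of 1 KPC and 1 PYMT tumor library were run on the 10x Genomics 3′ assay. The authors deposited UMI counts per gene and barcode, made with Cell Ranger 3.0 (submitters' processing notes, mm10). The strand setting and annotation release of the counting are not given in the sources used here, and GENCODE vM21 gave positions and overlaps. The deposited counts were used unnormalized: 10236 KPC and 12464 PYMT barcodes, of which 9591 and 11744 had at least 500 genes and under 10% mitochondrial UMIs. The members, gene lists and tests were chosen with earlier results of these data known.

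Other KPC barcodes were classed as endothelial (Pecam1, Cdh5 and Egfl7 at least 3 UMIs, and lymphatic with Prox1 and Mmrn1 at least 2), tumor epithelial (Epcam and Krt19 at least 2), immune (Ptprc at least 2) or pericyte (Notch3 and Higd1b at least 2) where exactly 1 held, giving 6671 blood endothelial, 819 lymphatic, 642 tumor epithelial, 3 immune and 55 pericyte barcodes, with 1006 not assigned. UMIs were summed per group. Levels carry exact 95% Poisson intervals, log2 ratios exact conditional binomial ones, and a count of 0 was set to 3 counts for a bound. UMIs remove PCR copies, and intervals cover counting error only. Genes with at least 100 UMIs were called higher or lower at a log2 ratio of 1 or -1. With 1 library per model no test was run.

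Named genes were the 25 highest ratios among genes of at least 100 CPM in fibroblasts, the 10 lowest among genes of at least 100 CPM elsewhere, up to 6 members of each list by level, members against the majority, genes the study names and 10 leading genes per cluster found in at least 25% of its cells. Gate genes were left out. A few list members are not reported here. Clustering used 1000 variable genes, 15 components, 15 neighbors and Leiden resolution 0.5. Scrublet called 0 of 9591 barcodes and so did not work, and leaving out the top 8% of its scores was an alternative. On simulated counts, 100 genes raised by a log2 of 2 were recovered at a median of 2.00, and 96% of 100 lowered genes were called lower. Python 3.11.15, numpy 2.4.6, scipy 1.17.1, pandas 2.3.3, scanpy 1.11.5, leidenalg 0.10.2 and matplotlib 3.10.9 were used.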

Additional observations from a re-analysis of the deposited data

Results flagged for a closer look

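The log2 ratio of gated fibroblasts over the other barcodes of the same library had counting intervals on opposite sides of 0 in KPC and PYMT for 4 of the listed genes with over 3 UMIs in each group. None of the 4 reached the fold in KPC, and these differences were not tested. Ecm1, a matrix glycoprotein, was at -0.86 in KPC and 1.47 in PYMT. Igfbp3, which binds insulin-like growth factors, was at 0.13 in KPC and -1.80 in PYMT. The immediate early gene Junb was at -0.11 in KPC and 0.98 in PYMT, and the interferon-stimulated gene Isg15 was at 0.64 in KPC and -1.55 in PYMT. The PYMT values rest on 21 barcodes. Among KPC barcodes that failed the limits on genes or mitochondrial UMIs, 3 met the fibroblast gate and were not used.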

How the results depend on the processing

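For genes called, members, clusters and the members higher of 8 lists (5 matrix or myofibroblastic, and the inflammatory, chemokine and complement lists), 163 recomputed counts stayed within 1.5 times the reported count and 6 did not. With no minimum of UMIs per gene, 2398 genes were higher. With at least 500 UMIs per gene, 523 genes were higher, 1554 were lower and 4 complement genes were higher, fewer genes being tested. Counts of other lists moved more: 1 to 7 antigen-presenting genes were higher, 0 to 4 immune genes higher and 0 to 8 lower, and up to 5 cell cycle genes lower. Medians changed sign under at least 1 alternative for the antigen-presenting (to -0.65), mesothelial (to 2.44), PDGF and FGF (to -0.51), vessel factor (to -0.31), dissociation (to -0.19), interferon-stimulated (to -0.40), immune (to -2.01), epithelial (to 0.46) and acinar (to -1.93) lists. Among listed genes that were still tested, 38 lost their call under at least 1 alternative, the most often H2-Ab1 (6), Cxcl10, H2-Eb1, Slpi and Tslp (5 each) and Snai1 (4). Not all of these losses are given gene by gene above. The cluster matching cluster 3 held 70 barcodes at resolution 1.0, where 7 clusters were found, and the one matching cluster 5 held 10 without the top 8% of Scrublet scores. Of the recomputed ratios of single genes, 112 stayed within the counting interval of the reported value and 44 moved, the most for Pdpn (5.69) and Vegfa (4.37) with blood endothelial barcodes as the comparator. Of the recomputed ratios, that of Nr2f2, which was not called (0.16), changed sign, to -0.0034 with barcodes thinned to 2000 UMIs. The ratio of Mfap5 was 5.28 when members needed no UMI of the limiting genes, the dropped barcodes then being in the comparator. Members numbered 264 under that rule, 303 with a collagen sum of at least 50, 425 with at least 10, 360 with limits of 1000 genes and 5% mitochondrial UMIs, and 370 without the top Scrublet scores. Leaving out the mesothelial-like cluster or the barcodes with macrophage or acinar UMIs was chosen after seeing the data. Depth limits genes at few UMIs, the 55 pericytes and the 21 PYMT barcodes most. No paired analysis was possible because there is 1 library per tumor model.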
